A study of Mus musculus with 144 samples.

Results

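Primary mouse hepatocytes that received only the vehicle, dimethyl sulfoxide (DMSO), were compared between 8 h and 2 h after the vehicle was added. All libraries with the DMSO label at these times were taken, which gave 16 libraries, 8 at 8 h and 8 at 2 h, of a series that holds 36 groups of 4 libraries, and no expression value was used to choose them. At each time, 4 libraries were labelled wild-type (WT) and 4 were labelled PkmΔDRE, a mouse line that is homozygous in the whole body for a deletion of 5 bases, the core of a dioxin response element (DRE) in an intron of the pyruvate kinase gene Pkm. The animals were male C57BL/6NCrl mice aged 28 days by the labels. Both groups shared every step up to the vehicle: collagenase perfusion of the liver, attachment for 3 h to type I collagen in Williams' medium E with 5% fetal bovine serum and 100 nM dexamethasone, then removal of loose cells and a change to medium in which insulin, transferrin and selenium replaced the serum while the dexamethasone remained. The 2 h and 8 h libraries therefore differed in the hours that followed the medium change, and no uncultured liver is among the samples used here. The labels and the described methods differ in plate format and seeding density, and neither gives the animal or the culture behind a library, so the p-values below measure the spread between these libraries, which may be technical. Counts per gene cannot show a deletion of 5 intronic bases, and counts per gene do not separate the M1 and M2 isoforms of Pkm. In the matching 8 h libraries with the dioxin TCDD, labelled WT Pkm was at 29.3 to 62.6 CPM against 41.8 to 80.8 CPM with vehicle (log2 fold change -0.36, SE 0.25, adjusted p = 0.266, edgeR), and labelled PkmΔDRE Pkm was at 109.2 to 169 CPM against 37.8 to 81.5 CPM (log2 fold change 1.24, SE 0.25, adjusted p = 0.0709, edgeR), with all libraries of the series scaled together. The PkmΔDRE groups did not overlap although that label names the mice without the element, and neither difference passed the test after adjustment over all genes tested. At 12 h labelled PkmΔDRE Pkm was at 93.7 to 201 CPM with TCDD against 36.95 to 52.4 CPM with vehicle (log2 fold change 1.68, SE 0.37). At 24 h it was at 278 to 491 CPM against 73.5 to 296 CPM (1.35, SE 0.53). Labelled WT Pkm changed by 0.17 (SE 0.36) at 12 h and -0.04 (SE 0.52) at 24 h on the log2 scale. These differences did not pass either, and whether the labels were exchanged was not tested. The genotypes are therefore given as labelled, and the pooled contrast, with genotype label as a covariate, is the same if the labels are exchanged.

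Hepatocytes are the main cells of the liver. They secrete plasma proteins, detoxify ammonia through the urea cycle, release glucose during fasting, make bile acids and oxidise drugs with cytochrome P450 enzymes. Taking the cells out of the liver with collagenase is known to switch on immediate early genes, stress genes and inflammatory genes, and cells kept as a monolayer on stiff collagen are known to lose liver functions over time while cytoskeletal genes become more active. Immediate early genes code mostly for transcription factors and phosphatases whose short-lived transcripts appear within minutes of a stimulus and decay soon after it ends.

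The libraries held from 15636067 to 25068992 read pairs counted on genes. Levels are given as CPM, read counts relative to a library size scaled by the trimmed mean of M-values (TMM) over all vehicle libraries of the series, and they are not corrected for gene length. Library composition differed between the times, with the 50 genes of highest count taking 38.6 to 44.4% of the gene counts at 2 h and 34.6 to 38.6% at 8 h. The share of uniquely mapped pairs that lay on no gene was 4.72% ± 0.58 (SD, n = 8) at 2 h and 5.21% ± 0.70 (n = 8) at 8 h, a difference of 0.491 percentage points (p = 0.149, two-sided exact permutation test). Unmapped pairs made up 10.6% ± 2.31 and 9.97% ± 2.31, respectively (p = 0.598, two-sided exact permutation test). Within the labelled WT libraries, replicates 1 and 2 had 13.4 to 14.5% unmapped pairs at both times, while replicates 3 and 4 had 8.07 to 9.31%. No label names a batch, so these sets, on either side of 12%, are sets of libraries by unmapped share. With the set as a further covariate, 2627 genes were called higher and 2390 lower, against 2582 and 2363 without it. Of the 4945 genes called in the pooled comparison below, 98.4% had the same sign within the labelled WT set of high unmapped share (2 libraries against 2). The share was 99.2% within the set of low share (2 against 2) and 99.9% within the labelled PkmΔDRE libraries (4 against 4). All these libraries also entered the pooled fit that chose the genes, so agreement in sign was largely set in advance. Fewer of the 4945 were called in the same direction within these sets, with 2375, 2824 and 3417, respectively.

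Principal component analysis placed the 2 times on opposite sides of the first component, which held 41.7% of the variance. The 2 h libraries lay between -66.7 and -56.9 with the exception of the labelled PkmΔDRE 2 h replicate 2 at -29.4, and the 8 h libraries lay between 47.1 and 67.8 with the exception of the labelled PkmΔDRE 8 h replicate 2 at 37.2. Both exceptions were nearer to the other time, and neither crossed to its side. In the labelled WT 8 h group, replicates 1 and 2 were more alike than most replicates (chi-square per degree of freedom 9.48), as were replicates 3 and 4 (10.5), whereas the other 4 pairs of that group gave 56.7 to 74.5. All pairs differed by more than counting noise, which does not show whether they came from separate animals or cultures. Each library was counted as 1. With the 2 close pairs summed, 2460 genes were called higher and 2185 lower.

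**Figure D1:**
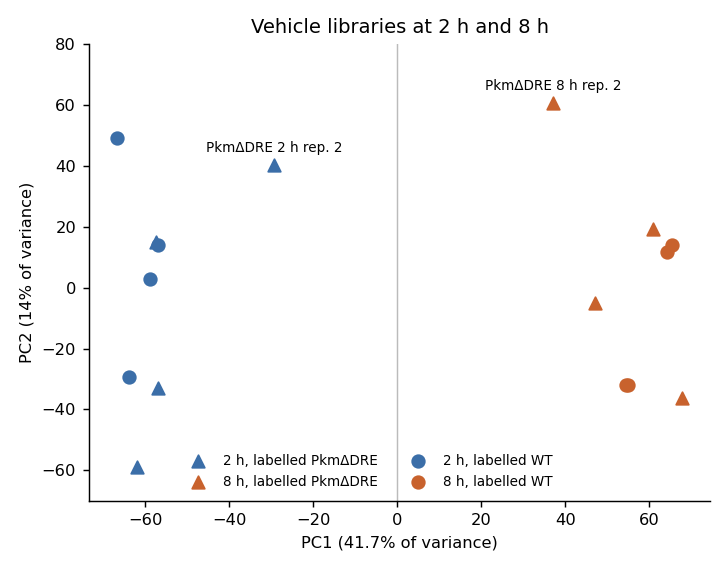
First and second principal components of log2 CPM in the 16 vehicle libraries, with the share of variance on each axis. The first component (41.7%) separated all 2 h libraries from all 8 h libraries, and the 2 labelled PkmΔDRE libraries numbered replicate 2, at -29.4 and 37.2, lay nearest to the other time.

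A total of 4945 of 13092 genes tested (37.8%) differed between 8 h and 2 h by at least 1.5-fold at an adjusted p under 0.05 (quasi-likelihood test of edgeR, Benjamini-Hochberg adjusted). Of these, 2582 (19.7% of genes tested) were higher at 8 h and 2363 (18%) were lower, and these shares are the background against which the counts of each gene list are read. The changes were often large, with 1460 genes at least 2-fold higher and 1535 at least 2-fold lower, and 357 and 444 genes, respectively, changed by 4-fold or more. In 888 genes (6.78%) every 8 h library was above every 2 h library, and in 1128 genes (8.62%) every 8 h library was below. The split of calls by direction depended on scaling: 52.2% of calls were higher at 8 h with TMM, against 79.9% with scaling by library size alone, which moved the median log2 fold change over all genes from 0.11 to 0.53. The genes that fell started from higher levels, with a median of 37.1 CPM at 2 h and 14.97 CPM at 8 h, than the genes that rose, at 9.66 and 20.2 CPM, as the plot of change against level shows.

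**Figure D2:**
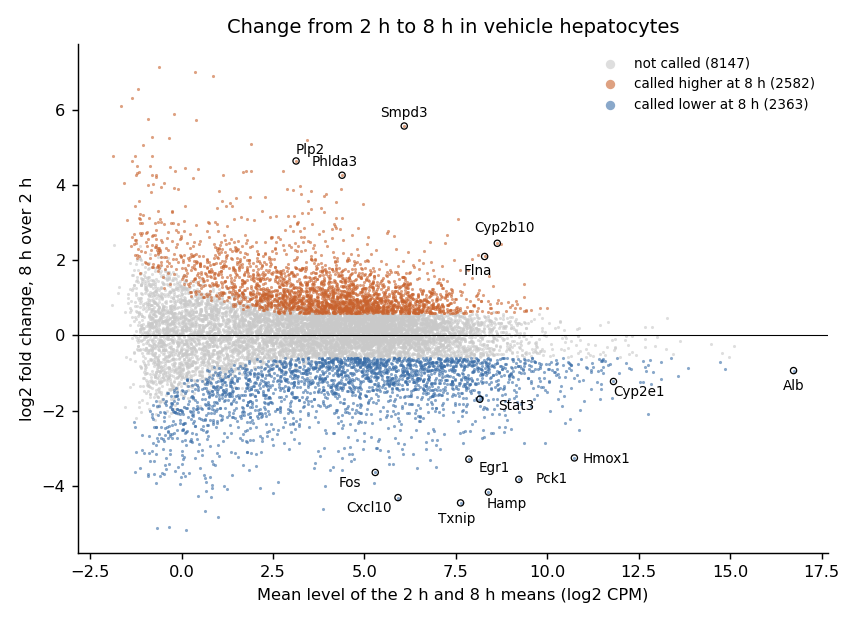
Log2 fold change from 2 h to 8 h against the mean of the 2 h and 8 h levels (log2 CPM) for the 13092 genes tested, in orange where called higher (2582), in blue where called lower (2363) and in grey where not called. Alb, at the far right, had a log2 fold change of -0.93, and Smpd3, at 5.57, stood highest among the genes named in the plot.

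Genes of hepatocyte function and genes that respond to acute stimuli made up the lists with most members lower at 8 h, whereas lists of cytoskeletal, replication and p53 genes had more members higher than lower, with 35.3, 40.7 and 33.3% higher, respectively, against 19.7% of all genes tested. Of 30 tested genes of the urea cycle and amino acid breakdown, 27 fell and 0 rose. Of 35 tested immediate early genes, 27 fell and 2 rose. Among 51 tested genes of the cytoskeleton, adhesion and the YAP and SRF pathways, 18 rose and 4 fell. Shares near the background were seen in cholesterol genes (6 of 32 higher and 8 lower) and liver-enriched transcription factors (4 of 25 higher and 6 lower). Proteasome subunits, which every cell needs, gave 1 call higher and 0 lower among 31, with a median log2 fold change of 0.19 against 0.11 over all genes tested. Under scaling by library size alone, 4954 of the 13092 genes tested were higher and 1247 lower, with a median log2 fold change of 0.53. These values are the background for every list count given under that scaling. With it, 17 of the 31 proteasome subunits were called higher. Fewer members were lower in several lists: 20 and not 32 drug metabolism genes, 10 and not 16 growth hormone genes, and 4 and not 8 mitochondrial genes. The same held for markers: 4 and not 9 of endothelium, 3 and not 9 of Kupffer cells and 1 and not 6 of hepatocytes.

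**Figure D3:**
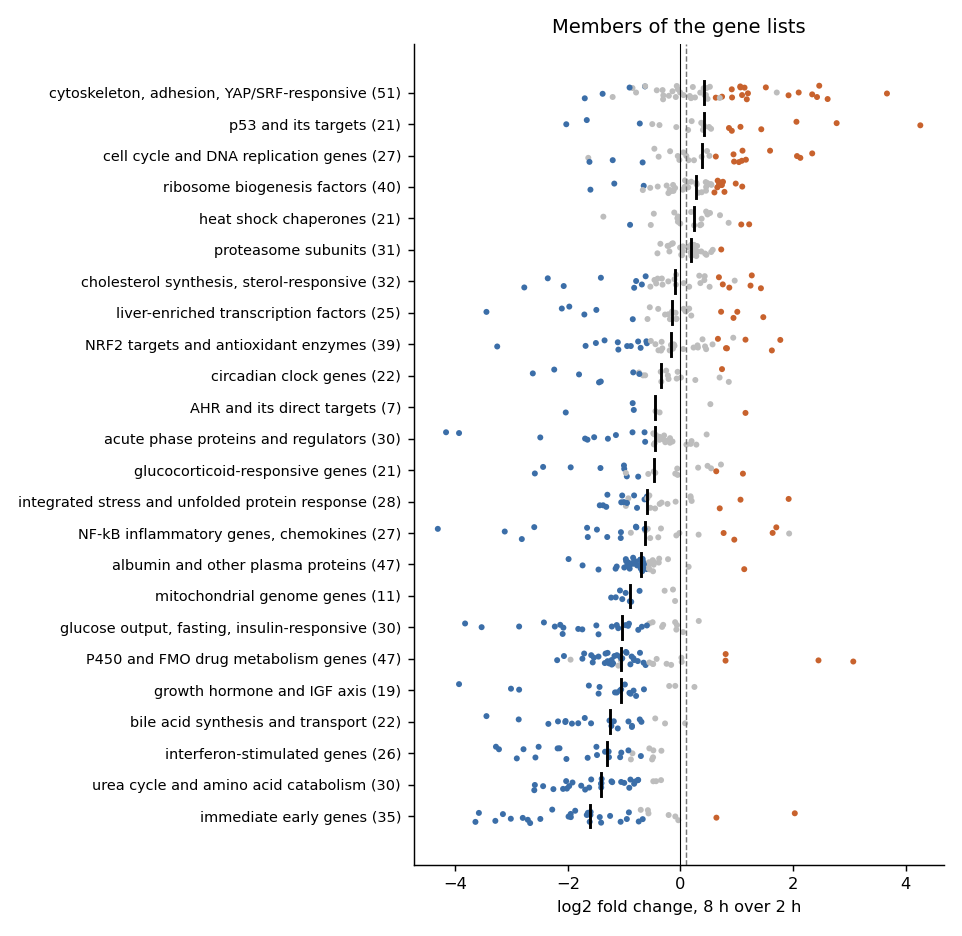
Log2 fold change from 2 h to 8 h for each tested member of the 24 gene lists, one row per list with the number tested in brackets. Orange and blue points were called higher and lower, grey points were not called, black bars are list medians, the solid line is 0 and the dashed line is the median over all genes tested (0.11). List medians ran from -1.60 in immediate early genes to 0.41 in cytoskeletal genes.

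The gene with the largest rise was Smpd3 (chromosome 8, 106252548 to 106337988, GRCm38), which codes for a neutral sphingomyelinase. Its level lay between 0.767 and 5.02 CPM at 2 h (median 3.00) and between 75.95 and 171 CPM at 8 h (median 143.1), log2 fold change 5.57 (SE 0.27, adjusted p = 9.16e-12). Every 8 h library was far above every 2 h library. The 10 largest rises and the 10 largest falls were picked among genes whose groups did not overlap. Their separation, here and where they appear with their groups below, was therefore set by that rule. C1qtnf6, a secreted protein of the C1q and TNF related family, went from a median of 0.505 to 22.2 CPM (log2 fold change 5.21), and Plp2, a membrane protein, went from 0.593 to 16.1 CPM (4.64). Numbers in brackets after a gene are log2 fold changes from 2 h to 8 h throughout. S100a6, a calcium-binding protein, rose from 2.04 to 43.4 CPM (3.91). The other genes with the largest rises were Usp43 (5.09), Rasl10b (4.38), Inka2 (4.37), Tent5b (4.34), Phlda3 (4.26) and Ccdc9b (3.98). Most of these genes were close to undetected at 2 h, so the size of their fold rests on few counts in that group.

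The largest falls included genes of glucose handling, endothelium, iron hormone and chemokine signalling. Txnip, which codes for the thioredoxin-interacting protein that limits glucose uptake, was between 186 and 557 CPM at 2 h (median 366) and between 7.01 and 40.9 CPM at 8 h (median 13.6), log2 fold change -4.45 (SE 0.30, adjusted p = 6e-10). The lowest 2 h library was still several times the highest 8 h library. Fam84a fell from a median of 25.9 to 0.811 CPM (log2 fold change -4.62). Gpihbp1, which holds lipoprotein lipase on capillary endothelium, fell from 10.97 to 0.478 CPM (-3.9), and Cd300lg, another gene of endothelium, fell by a similar factor (-4.05). Cxcl10, Hamp, Cd274, Socs3, Pck1 and Fos, the others with the largest falls, are described with their groups.

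Immediate early genes fell nearly throughout the list. Of 38 listed genes, 35 were tested, 27 were lower at 8 h and 2 were higher, the median log2 fold change was -1.60, and in 25 of the 27 no 8 h library reached the lowest 2 h library. The member with the largest fall was Fos, a subunit of the AP-1 transcription factor. The following 100 bases end just before its RefSeq start (GRCm38.p6 chr12:85473790-85473889, plus strand) and are shown because Fos leads the list, with the TATA box in capitals.
Fos: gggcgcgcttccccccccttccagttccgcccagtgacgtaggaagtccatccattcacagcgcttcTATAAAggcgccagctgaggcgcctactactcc

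Fos was between 33.7 and 158 CPM at 2 h (median 63.4) and between 2.92 and 7.55 CPM at 8 h (median 5.41), log2 fold change -3.64 (SE 0.24, adjusted p = 5.43e-10). Egr1, a zinc finger factor of the same kinetic class, went from 251 to 647 CPM at 2 h (median 409.5) down to 24.8 to 101.8 CPM at 8 h (median 32.9), log2 fold change -3.29 (SE 0.25, adjusted p = 1.78e-09). The 8 h groups of both genes lay wholly below the 2 h groups. Dusp6, a phosphatase that switches off ERK kinases, fell from a median of 232 to 29.4 CPM (log2 fold change -3.02, SE 0.21, adjusted p = 8.11e-10). Myc, a growth factor-responsive transcription factor, fell from 406 to 137.9 CPM (log2 fold change -1.6, SE 0.14, adjusted p = 2.09e-08), and Atf3, a stress-induced factor, from 467 to 111.3 CPM (log2 fold change -1.95, SE 0.18, adjusted p = 3.44e-08). None of these groups overlapped. Jun, the partner of Fos in AP-1, had a smaller fall (log2 fold change -1.06), as did Ier2 (-0.74) and Klf6 (-0.67), whose groups overlapped.

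Ccn2 was the clear exception in the list. It codes for connective tissue growth factor, a secreted matrix protein and a target of YAP and SRF, and it was between 57.1 and 187 CPM at 2 h (median 96.9) and between 277 and 597 CPM at 8 h (median 372), log2 fold change 2.03 (SE 0.20, adjusted p = 8.15e-08). All 8 h libraries were above all 2 h libraries. Its relative Ccn1, also a matrix protein and YAP target, moved the other way (-1.41).

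Btg2, an antiproliferative gene and also a p53 target, fell from a range of 209.9 to 491 CPM (median 296) to 60.3 to 131.1 CPM (median 96.1), log2 fold change -1.67 (SE 0.19, adjusted p = 4.96e-07). The groups did not overlap. The sequence before its RefSeq start, GRCm38.p6 chr1:134079156-134079335 on the minus strand, is shown because it holds the full cyclic AMP response element TGACGTCA, one of 3 such promoters among the 21 immediate early genes that fell and had a promoter sequence. Capitals mark that element and the CCAAT boxes.
Btg2: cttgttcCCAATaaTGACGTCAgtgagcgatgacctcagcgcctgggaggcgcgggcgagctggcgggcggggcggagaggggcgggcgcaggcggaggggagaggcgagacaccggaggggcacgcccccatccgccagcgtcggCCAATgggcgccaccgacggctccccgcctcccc

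**Figure D4:**
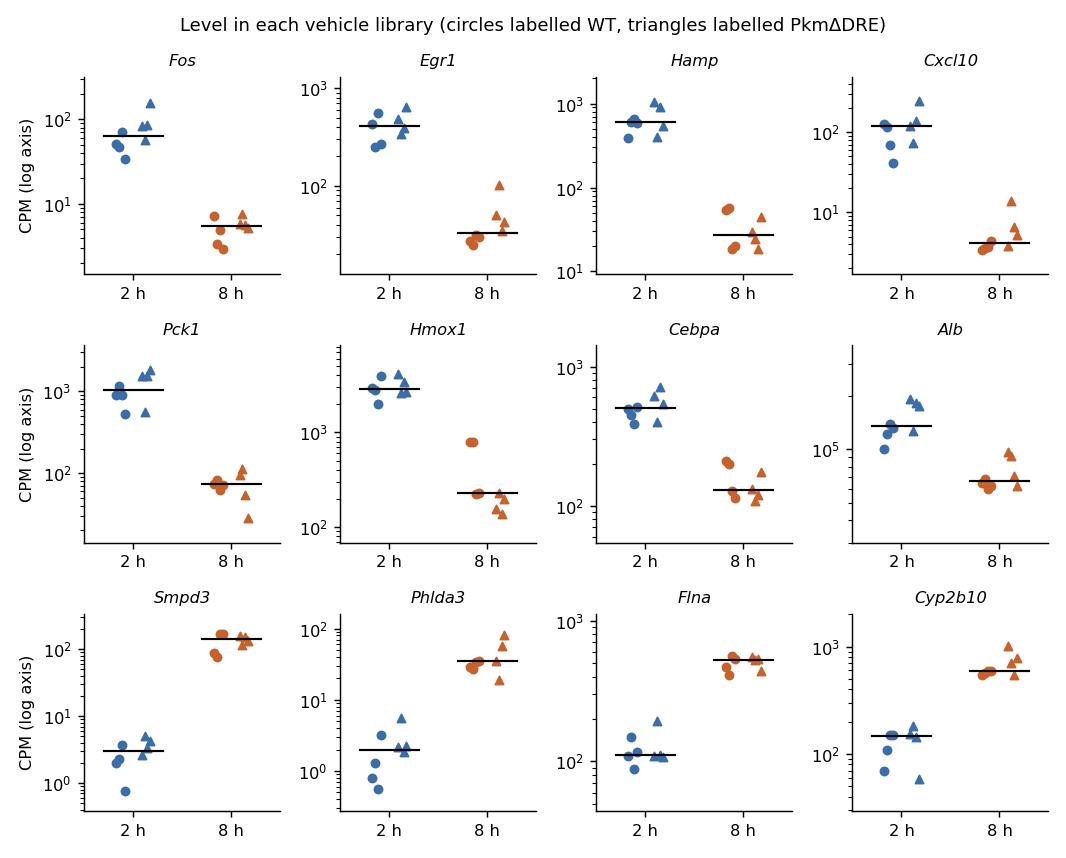
CPM on a log axis in each of the 16 vehicle libraries for 12 genes, at 2 h and 8 h, with circles for labelled WT, triangles for labelled PkmΔDRE and bars at the group medians. Fos fell from a median of 63.4 to 5.41 CPM and Smpd3 rose from 3.00 to 143.1 CPM without overlap, and the labelled WT 8 h replicates 1 and 2 stood high for Hmox1 (796 and 796 CPM).

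Inflammatory genes downstream of NF-kB were mixed, with 13 of 27 tested members lower and 4 higher (median log2 fold change -0.64). Cxcl10, a chemokine that attracts T cells, fell most: it was between 41.8 and 242 CPM at 2 h (median 117.95) and between 3.37 and 13.96 CPM at 8 h (median 4.09), log2 fold change -4.31 (SE 0.30, adjusted p = 9.05e-10). The highest 8 h value came from the labelled PkmΔDRE replicate 2. It lay below all 2 h libraries, which the rule that picked the gene required. Cxcl1, a neutrophil chemokine, fell from 81.8 to 218 CPM (median 144.02) to 25.2 to 66.97 CPM (median 43.3), log2 fold change -1.65 (SE 0.19, adjusted p = 5.33e-07). Il1r1, the receptor of interleukin 1, fell from a median of 78.4 to 9.39 CPM (log2 fold change -2.82, SE 0.30, adjusted p = 1.54e-07). The monocyte chemokine Ccl2 went in the opposite direction, from 4.03 to 9.87 CPM at 2 h (median 5.84) to 11.7 to 29.5 CPM at 8 h (median 21.04), log2 fold change 1.7 (SE 0.22, adjusted p = 1.93e-06), and its groups did not overlap. Nfkb2, a subunit of the non-canonical pathway, also rose (0.96), whereas Nfkb1 (-0.78) and the inhibitor Nfkbia (-1.06) fell.

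The promoters of these chemokines are shown because both genes fell and their promoters differ in the motifs they hold. The Cxcl1 stretch (GRCm38.p6 chr5:90891145-90891240, plus strand) has in capitals a pair of matches to the NF-kB consensus, read on both strands, and the Cxcl10 stretch (chr5:92348890-92348989, minus strand) has in capitals an AP-1 motif TGANTCA and a CCAAT box. Of the 11 NF-kB list genes that fell and had a promoter sequence, 4 held the NF-kB motif.
Cxcl1: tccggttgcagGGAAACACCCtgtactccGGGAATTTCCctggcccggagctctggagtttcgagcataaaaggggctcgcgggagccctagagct
Cxcl10: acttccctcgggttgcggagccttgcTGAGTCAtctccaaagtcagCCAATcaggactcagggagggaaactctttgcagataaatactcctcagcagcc

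Interferon-stimulated genes fell as a group, with 19 of 26 lower, 0 higher and a median log2 fold change of -1.31. Ifit1, which binds viral RNA, was between 15.7 and 80.3 CPM at 2 h (median 41.1) and between 2.7 and 8.29 CPM at 8 h (median 4.73), log2 fold change -3.28 (SE 0.33, adjusted p = 9.76e-08). Usp18, an inhibitor of interferon signalling, fell from a median of 191 to 26.4 CPM (-2.91). The 8 h libraries were below all 2 h libraries for both genes. The signalling factors Stat2 (-1.28) and Irf9 (-1.65) fell too. Cd274, the immune checkpoint ligand PD-L1, was between 11.4 and 68.997 CPM at 2 h and between 0 and 6.74 CPM at 8 h (log2 fold change -3.99, SE 0.48, adjusted p = 8.52e-07), also without overlap.

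Acute phase genes, which the liver makes under interleukin 6, had 11 of 30 members lower and 0 higher (median log2 fold change -0.45). With library size alone 8 were lower and 2 higher (median -0.003). In labelled WT libraries 9 were lower and 4 higher (median -0.30). In labelled PkmΔDRE libraries 16 were lower and 0 higher (median -0.74), and the difference between labels was not tested for the list. Hamp, the iron hormone hepcidin, was between 387 and 1034 CPM at 2 h (median 595) and between 18.4 and 56.5 CPM at 8 h (median 26.9), log2 fold change -4.17 (SE 0.29, adjusted p = 9.55e-10). Socs3, the feedback inhibitor of interleukin 6 signalling, went from a median of 60.6 to 4.04 CPM (log2 fold change -3.94, SE 0.34, adjusted p = 1.31e-08). Stat3, the transcription factor of that pathway, went from 439 to 128.6 CPM (log2 fold change -1.7, SE 0.12, adjusted p = 7e-10). No 8 h library reached the 2 h range in any of these genes. Among secreted products, the fibrinogen chain Fgg fell from 5289 to 1437 CPM (-1.65), as did Fgb (-1.29) and Fga (-1.15). Saa1, serum amyloid A, was not called: its 8 h libraries spread from 407 to 4790 CPM around the 2 h range of 1120 to 2764 CPM (log2 fold change 0.2, SE 0.27, adjusted p = 0.571), with a log2 fold change of 0.91 in labelled WT and -0.52 in labelled PkmΔDRE libraries.

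Stress pathways moved unevenly. In the integrated stress and unfolded protein response list, 12 of 28 members fell and 3 rose (median log2 fold change -0.59), and with library size alone 5 fell and 4 rose (median -0.19). Ppp1r15a, which restores translation after stress, fell from a median of 156 to 54.3 CPM (-1.43). The endoplasmic reticulum chaperone Hspa5 was between 666 and 2553 CPM at 2 h (median 1224) and between 319.9 and 1016 CPM at 8 h (median 386), log2 fold change -1.38 (SE 0.29, adjusted p = 0.00051), and the groups overlapped. Its log2 fold change was -2.18 in labelled WT and -0.57 in labelled PkmΔDRE libraries. The 3 members that rose, Phgdh (1.92), Asns (1.07) and Psat1 (0.7), make serine or asparagine. Heat shock chaperones, which refold damaged proteins, gave 2 of 21 higher, 1 lower and a median log2 fold change of 0.24.

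Targets of NRF2, the factor that responds to oxidants, and antioxidant enzymes gave 12 of 39 lower and 6 higher (median log2 fold change -0.17, or 0.25 with scaling by library size alone, under which 14 were higher and 5 lower). Hmox1, heme oxygenase 1, was between 2019 and 4163 CPM at 2 h (median 2889) and between 136.7 and 796 CPM at 8 h (median 226), log2 fold change -3.26 (SE 0.33, adjusted p = 1.17e-07). The groups did not overlap, and the labelled WT 8 h replicates 1 and 2, at 796 and 796 CPM, stood above the other 8 h libraries. Cat, catalase, fell from 4256 to 1078 CPM (-1.69). The quinone reductase Nqo1 rose from a range of 8.88 to 22.9 CPM (median 15.4) to 26.8 to 41.6 CPM (median 32.9), log2 fold change 1.16 (SE 0.15, adjusted p = 2.4e-06), without overlap. Cbr3, a carbonyl reductase, rose as well (1.77). Of 7 tested genes of the aryl hydrocarbon receptor (AHR) and its direct targets, 3 fell and 1, Nqo1, rose. Tiparp, a poly(ADP-ribose) polymerase that represses AHR, fell from 40.9 to 10.7 CPM (-2.04). Cyp1a1, the classic AHR target, was at 0.897 to 5.79 CPM at 2 h and 1.07 to 4.35 CPM at 8 h and was not called (log2 fold change 0.53, SE 0.42, adjusted p = 0.31). Pkm itself was between 53.8 and 322 CPM at 2 h (median 95.7) and between 40.8 and 89.2 CPM at 8 h (median 60.3), log2 fold change -0.85 (SE 0.29, adjusted p = 0.0225), with overlap between the times. The 2 h maximum of Pkm came from the labelled PkmΔDRE replicate 1, and without that library Pkm was not called (log2 fold change -0.53). The call was lost in 5 settings, and library size alone gave a log2 fold change of -0.43. Within the labelled WT sets of high and low unmapped share Pkm changed by -0.03 and -1.07 and was not called. Within labelled PkmΔDRE libraries it changed by -1.17 and was called.

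Amino acid catabolism and the urea cycle had the largest share of members lower, 27 of 30, with a median log2 fold change of -1.41, and in 22 genes the groups did not overlap. Hal, histidine ammonia lyase, was between 364 and 835 CPM at 2 h (median 625) and between 50.7 and 146 CPM at 8 h (median 103.02), log2 fold change -2.6 (SE 0.19, adjusted p = 1.12e-09). Arg1, the arginase that releases urea, fell from a median of 1773 to 395 CPM (log2 fold change -2.02, SE 0.15, adjusted p = 1.31e-09). No 8 h library of either gene came near the 2 h range. The serine dehydratase Sds (-2.59) and the tryptophan dioxygenase Tdo2 (-2.44) fell without overlap. Of the enzymes of the urea cycle proper, Otc (-1.41), Ass1 (-1.23), Cps1 (-1.0) and Asl (-0.81) were all called lower, with overlapping groups for Otc and Cps1.

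Genes of glucose output, fasting and insulin response gave 21 of 30 lower and 0 higher (median log2 fold change -1.04). Pck1, the rate-limiting enzyme of gluconeogenesis, was between 534 and 1826 CPM at 2 h (median 1033) and between 28.3 and 113.7 CPM at 8 h (median 72.9), log2 fold change -3.83 (SE 0.28, adjusted p = 1.34e-09). G6pc, the phosphatase that frees glucose, was between 97.2 and 208 CPM at 2 h (median 185) and between 8.12 and 20.8 CPM at 8 h (median 12.4), log2 fold change -3.53 (SE 0.22, adjusted p = 2.3e-10). Both genes separated the times completely. Igfbp1, an insulin-repressed binding protein, fell from 1651 to 226 CPM (-2.87). The list held genes that insulin represses and genes that it induces, and members of both kinds fell: the lipogenic genes Thrsp (-2.43), Scd1 (-2.08) and Fasn (-0.75), and the fat-oxidising gene Cpt1a (-2.14).

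Bile acid synthesis and transport gave 19 of 22 lower and 0 higher (median log2 fold change -1.25). Cyp8b1, the hydroxylase that sets the ratio of bile acid species, was between 57.1 and 151 CPM at 2 h (median 127.5) and between 10.4 and 23.3 CPM at 8 h (median 13.4), log2 fold change -2.88 (SE 0.21, adjusted p = 1.24e-09). The bile acid uptake carrier Slc10a1 fell from a median of 502 to 90.6 CPM (-2.18). Both separated the times. Cyp7a1, the rate-limiting enzyme of bile acid synthesis, was already low, at 0.511 to 2.94 CPM at 2 h and 0 to 0.975 CPM at 8 h (log2 fold change -1.93, SE 0.59, adjusted p = 0.0108), with overlap.

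Drug metabolism genes gave 32 of 47 lower and 4 higher (median log2 fold change -1.05). Cyp2e1, which oxidises ethanol and small solvents, was between 3406 and 7122 CPM at 2 h (median 5177) and between 1332 and 2575 CPM at 8 h (median 2107), log2 fold change -1.22 (SE 0.15, adjusted p = 1.64e-06). Cyp3a11, the main P450 under the pregnane X receptor, fell from 1383 to 656 CPM (log2 fold change -1.33, SE 0.25, adjusted p = 0.000175) with overlap, and its log2 fold change was -2.08 in labelled WT and -0.58 in labelled PkmΔDRE libraries. In an edgeR fit over the vehicle libraries of all times the falls were of similar size but neither passed the threshold (log2 fold change -1.31, adjusted p = 0.214 for Cyp2e1, and -1.41, adjusted p = 0.105 for Cyp3a11). That fit included the labelled PkmΔDRE 4 h replicate 4, which is left out of the 4 h medians below. It held 0.43 CPM of Cyp3a11 against 718 to 2582 CPM in the other 7 libraries at 4 h. A fit without that library was not made. Cyp2b10 went against the list: it was between 58.9 and 184 CPM at 2 h (median 146) and between 540.5 and 1015 CPM at 8 h (median 592), log2 fold change 2.45 (SE 0.21, adjusted p = 1.16e-08). Every 8 h library was above every 2 h library for this target of the constitutive androstane receptor, while the gene for that receptor, Nr1i3, fell (-2.11). Fmo2 (3.07), Cyp4b1 (0.8) and Fmo4 (0.8) also rose, each with overlap. Reads of close copies, such as Cyp4a12a and Cyp4a12b, may have been split between the genes or dropped, so their values are uncertain.

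Albumin and other secreted plasma proteins gave 31 of 47 lower and 1 higher (median log2 fold change -0.71). This was the list that moved most with scaling, with 5 members lower when libraries were scaled by size alone. With scaling by relative log expression (RLE) in edgeR, 37 were lower. Under RLE 2261 of all 13092 genes tested were higher and 2660 lower. Together the 48 listed genes held 19.6 to 24.5% of gene counts at 2 h (median 21.1%) and 16.5 to 18.9% at 8 h (median 18.2%). Alb, albumin, was between 100950 and 191030 CPM at 2 h (median 135150) and between 59972 and 96310 CPM at 8 h (median 66221), log2 fold change -0.93 (SE 0.14, adjusted p = 1.33e-05). The groups did not overlap on this scale, although with library size alone the log2 fold change was -0.50 and fell short of 1.5-fold. Serpind1, heparin cofactor II, fell from a median of 733 to 167 CPM (log2 fold change -1.99, SE 0.13, adjusted p = 6.23e-10), and Apoa5, which regulates plasma triglyceride, also fell (-1.74). In the labelled PkmΔDRE libraries 38 members were lower and in the labelled WT libraries 19, a difference that was not tested for the list.

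Of 25 liver-enriched transcription factors and nuclear receptors, 6 fell and 4 rose (median log2 fold change -0.15, or 0.26 with scaling by library size alone). Cebpa, a factor of the differentiated hepatocyte, was between 388 and 711 CPM at 2 h (median 505) and between 108.6 and 209 CPM at 8 h (median 130.1), log2 fold change -1.71 (SE 0.16, adjusted p = 5.33e-08). Hnf4a, the other central factor of hepatocyte identity, was between 798 and 1844 CPM at 2 h and between 800.1 and 1211 CPM at 8 h and was not called (log2 fold change -0.22, SE 0.16, adjusted p = 0.27). The bile acid-induced repressor Nr0b2 (-3.45) and the carbohydrate-responsive factor Mlxipl (-1.5) fell, and Esrra, a regulator of mitochondrial genes, rose (1.47).

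Hormone-dependent lists fell in part. Genes of the growth hormone and IGF axis gave 16 of 19 lower and 0 higher (median log2 fold change -1.05), including the receptor Ghr (-1.16), Igf1 (-0.83), the signalling inhibitors Socs2 (-1.44) and Cish (-1.63) and the male-biased steroid enzyme Hsd3b5, which fell from 187 to 21.7 CPM (-3.01). Of 21 glucocorticoid-responsive genes, 8 fell and 2 rose (median log2 fold change -0.47) in medium that held dexamethasone at both times. With library size alone 5 rose and 4 fell (median -0.04), against 4954 higher and 1247 lower of all 13092 genes tested (median 0.53). Which direction held more calls thus depended on the scaling, while the list median lay below that of all genes under both scalings. Fkbp5, a direct glucocorticoid receptor target, went from a median of 246 to 306 CPM, which fell short of 1.5-fold (log2 fold change 0.54, SE 0.15, adjusted p = 0.00482), while Tat, tyrosine aminotransferase, was called lower (log2 fold change -0.75, SE 0.29, adjusted p = 0.0372) with overlapping groups. That call was lost in 13 settings, 7 of which left out a single library, and library size alone gave a log2 fold change of -0.34. Within the labelled WT sets of high and low unmapped share Tat changed by -0.15 and -0.40 (adjusted p = 0.778 and 0.394, edgeR), and within labelled PkmΔDRE libraries by -1.28 (adjusted p = 0.000261, edgeR), and the interaction of time with label did not pass for Tat (adjusted p = 0.442, edgeR). Of 22 circadian clock genes, 7 fell and 1 rose (median log2 fold change -0.35, or 0.07 with scaling by library size alone). Nr1d1, the clock repressor REV-ERBα, was between 156 and 445 CPM at 2 h (median 217) and between 22.4 and 65.6 CPM at 8 h (median 37.8), log2 fold change -2.62 (SE 0.17, adjusted p = 4.81e-10), without overlap. Its target Arntl, the clock activator BMAL1, fell as well (-1.45), and Per1 was not called (log2 fold change -0.05, SE 0.16, adjusted p = 0.819). The clock hour of the harvests is not given in the sources used here, so culture time and time of day cannot be told apart.

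Cholesterol genes went in both directions, with 6 of 32 higher and 8 lower (median log2 fold change -0.09, or 0.35 with scaling by library size alone, under which 12 were higher and 4 lower). Enzymes of the synthesis pathway were among those that rose, with Mvk, mevalonate kinase, going from 31.3 to 68.6 CPM (1.43), Mvd (1.27) and Hmgcs1 (1.25). Sterol exporters fell: Abcg5 went from 43.9 to 7.32 CPM (-2.36), Abcg8 had a log2 fold change of -2.78 and Abca1 of -2.08. Of 11 tested protein-coding genes of the mitochondrial genome, 8 fell and 0 rose (median log2 fold change -0.90), all 8 without overlap, for example mt-Cytb from 8386 to 3905 CPM (-1.23). Together the 13 listed mitochondrial genes held 3.55 to 4.8% of gene counts at 2 h (median 4.65%). At 8 h they held 2.58 to 4.82% (median 3.14%), so the ranges of this summed share overlapped. Reads of mitochondrial genes can also match nuclear copies, so the levels of these genes are uncertain.

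Cytoskeletal, adhesion and YAP and SRF genes had 18 of 51 tested members higher and 4 lower (median log2 fold change 0.41), and 9 of the 18 rose without overlap. Flna, the actin cross-linker filamin A, was between 89.003 and 193 CPM at 2 h (median 110.2) and between 409 and 560.2 CPM at 8 h (median 528), log2 fold change 2.1 (SE 0.15, adjusted p = 9.88e-10). Tubb5, a tubulin chain, was between 80.2 and 187 CPM at 2 h (median 149) and between 456 and 968 CPM at 8 h (median 705), log2 fold change 2.43 (SE 0.16, adjusted p = 4.4e-10). In both genes all 8 h libraries were well above all 2 h libraries. Further members that rose were Tpm2 (2.34), Tagln2 (1.92), Anxa2 (1.52) and Lmna (1.2). Actb, cytoplasmic actin, was at 6695 to 11012 CPM at 2 h and 6549 to 8889 CPM at 8 h and was not called (log2 fold change -0.05, SE 0.13, adjusted p = 0.783). Members that fell included Sphk1 (-1.7), Thbs1 (-1.38) and Myh9 (-0.63). Thbs1 was not called with library size alone (log2 fold change -0.94, adjusted p = 0.0941, edgeR).

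Cell growth and damage response genes rose in part. Among 27 tested cell cycle and replication genes, 11 rose and 3 fell (median log2 fold change 0.38). Mcm6, a subunit of the replicative helicase, was between 6.9 and 14.98 CPM at 2 h (median 11.4) and between 19.4 and 74.3 CPM at 8 h (median 45.3), log2 fold change 2.13 (SE 0.22, adjusted p = 1.42e-07), and Mcm2, another subunit, rose too (2.07), both without overlap. Cyclin D1, Ccnd1, which brings cells into the cycle, went the other way, from 8.68 to 3.57 CPM (log2 fold change -1.2, SE 0.35, adjusted p = 0.00722), and so did the ribonucleotide reductase subunit Rrm2 (-1.62). With library size alone Ccnd1 was not called (log2 fold change -0.71, adjusted p = 0.111, edgeR). Ribosome biogenesis factors gave 11 of 40 higher and 3 lower (median log2 fold change 0.28), with Npm1 (1.1) and Nop56 (0.72) among those that rose. Of 21 tested p53 targets, 7 rose and 3 fell (median log2 fold change 0.41). Phlda3, an inhibitor of AKT, was between 0.549 and 5.58 CPM at 2 h (median 2.00) and between 19.1 and 80.99 CPM at 8 h (median 34.5), log2 fold change 4.26 (SE 0.36, adjusted p = 8.14e-09). The death receptor Tnfrsf10b rose from 3.79 to 23.8 CPM (2.78), also without overlap, whereas the death receptor Fas fell from 29.95 to 6.83 CPM (-2.03). The cell cycle inhibitor Cdkn1a was lower at 8 h (-0.72).

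Markers of other liver cells fell beside these groups. In bulk samples, fewer cells of a type and less RNA per cell cannot be told apart. The summed level of 11 endothelial markers was 399.7 to 659.8 CPM at 2 h (median 458.0) and 129.5 to 411.9 CPM at 8 h (median 207.7), and 9 of the 11 were called lower, led by Clec4g (-3.0). The sum of 12 macrophage and Kupffer cell markers was 238.5 to 572.7 CPM at 2 h (median 382.7) and 147.4 to 285.0 CPM at 8 h (median 240.7), with 9 of 11 tested lower, including Clec4f (-1.05). The ranges of both sums overlapped between the times. In labelled WT libraries 3 of the 11 macrophage and Kupffer cell markers were lower and 1 higher (median log2 fold change -0.53). In labelled PkmΔDRE libraries 8 were lower and 0 higher (median -1.09). Within the labelled WT set of high unmapped share 4 were lower and 1 higher. Within the set of low share 0 were called in either direction (median -0.23). Of all 13092 genes tested, 1346 were lower and 1428 higher within the set of high share. Within the set of low share 1657 were lower and 1514 higher, with 2 libraries a side in each set. The difference between the labels was not tested for these markers. The sum of 7 bile duct markers went from a median of 94.3 CPM (range 44.7 to 146.3) to 35.3 CPM (19.7 to 48.9), with 1 lower and 1 higher of 4 tested. The sum of 10 blood cell markers went from 223.5 CPM (171.1 to 398.2) to 113.4 CPM (96.8 to 208.6), with 1 lower and 1 higher of 3 tested, and 2 of the 10 were at 0 in every 2 h library and 4 in every 8 h library. The sum of 12 stellate cell markers went from 74.3 CPM (53.8 to 103.5) to 55.1 CPM (43.98 to 95.2), with 1 of 8 tested lower. All 3 of these sums had lower medians at 8 h and ranges that overlapped between the times. The sum of 10 hepatocyte markers was 137010 to 240180 CPM at 2 h and 81147 to 119170 CPM at 8 h, and 6 of the 10 fell (1 with library size alone). At both times this sum was far above that of every other cell type listed. The part of these cell types in the falls of inflammatory, interferon and acute phase genes was not tested.

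Each genotype label was also analysed alone. Within labelled WT libraries 2280 genes were higher (17.4%) and 2139 lower (16.3%) at 8 h (33.8% in either direction), and within labelled PkmΔDRE libraries 2017 were higher (15.4%) and 1826 lower (13.9%, or 29.4% in either direction). Of the 4945 pooled calls, 2625 (53.1%) were called in the same direction under both labels, and 4 (Fam84b, Golga3, Rapgef2 and Ubn1) had log2 fold changes of opposite sign, one of each pair lying close to 0. Immediate early genes were lower in 28 of 35 in labelled WT and 26 of 35 in labelled PkmΔDRE, and urea cycle and amino acid genes in 26 of 30 under each label. The test of the difference itself, the interaction of time with label, called 0 genes (edgeR), with 1497 genes (11.4%) at an unadjusted p under 0.05, and DESeq2 called 0.924% of genes. Without the labelled PkmΔDRE 8 h replicate 4 the edgeR test called 3.95% of genes, and without the filter on low counts 1.08%. Of the named genes, 18 had an unadjusted interaction p under 0.05, among them Cyp3a11, Hspa5, Saa1, Hmox1 and the ribosome factor Heatr1 (-1.85 in labelled WT and -0.51 in labelled PkmΔDRE libraries), and none of them passed the Benjamini-Hochberg adjustment. Across the genes tested, the log2 fold changes under the labels had a Pearson r of 0.742, as a description, since genes are not independent replicates.

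The same hours could be compared in the 16 libraries that received 10 nM TCDD, an AHR agonist, of which none enters the vehicle contrast. There, 2381 of 13686 genes tested (17.4%) were higher and 2703 (19.8%) lower at 8 h (37.1% in either direction). Of the vehicle calls tested there, 3790 of 4882 (77.6%) were called in the same direction, and 2 in the opposite one, Cyp1a2 (-0.83 in vehicle and 1.01 with TCDD) and the uncharacterised 4931440P22Rik. Fos changed by -3.64 and -3.62, Cxcl10 by -4.31 and -4.15, Pck1 by -3.83 and -4.24, and Smpd3 by 5.57 and 5.26 on the log2 scale in vehicle and TCDD libraries, respectively. Cyp1a1 rose with TCDD (7.61) and was not called with vehicle. Immediate early genes had 29 members lower with TCDD and 27 with vehicle, urea cycle and amino acid genes 28 and 27, and cytoskeletal genes 17 higher with TCDD and 18 with vehicle. Plasma protein genes had 42 members lower with TCDD and 31 with vehicle. The difference between treatments was not tested.

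The vehicle libraries at 4, 12 and 24 h place the change in time. One library at 4 h, labelled PkmΔDRE replicate 4, stood apart, with 7849 CPM of Alb against 95930 to 120000 CPM in the other 7, and it was left out of the 4 h medians. Of the 2582 genes that rose, 2101 (81.4%) had a 4 h median between the 2 h and 8 h medians and 563 were past the midpoint, while of the 2363 that fell 2169 (91.8%) lay between and 1293 were past the midpoint. Choosing genes by the distance between their 2 h and 8 h values favours a 4 h median between them. At 12 h, 2551 of the genes that rose (98.8%) were still above their 2 h median and 2342 of those that fell (99.1%) were still below it. The 2 h and 8 h values helped to choose these genes. No share over all genes tested stands beside the counts at 4 h and 12 h, here or against the 8 h median below. Against the 8 h median, 1150 of the genes that rose (44.5%) were higher still at 12 h. Of those that fell, 1484 (62.8%) were lower still. Fos was at a median of 63.4, 19.5, 5.41 and 3.22 CPM at 2, 4, 8 and 12 h, and Pck1 at 1033, 297, 72.9 and 29.2 CPM. Pck1 thus went on falling past 8 h, to 3.86 CPM at 24 h. Smpd3 was still at 5.34 CPM at 4 h, against 3.00 CPM at 2 h and 143.1 CPM at 8 h, and Flna went from 110.2 through 243 to 528 CPM and to 1276 CPM at 24 h. Cyp2b10 was at 236 CPM at 4 h, 592 CPM at 8 h and 739 CPM at 12 h. The 2 h and 8 h values here are those that chose the genes, so only the 4, 12 and 24 h values add to them.

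**Figure D5:**
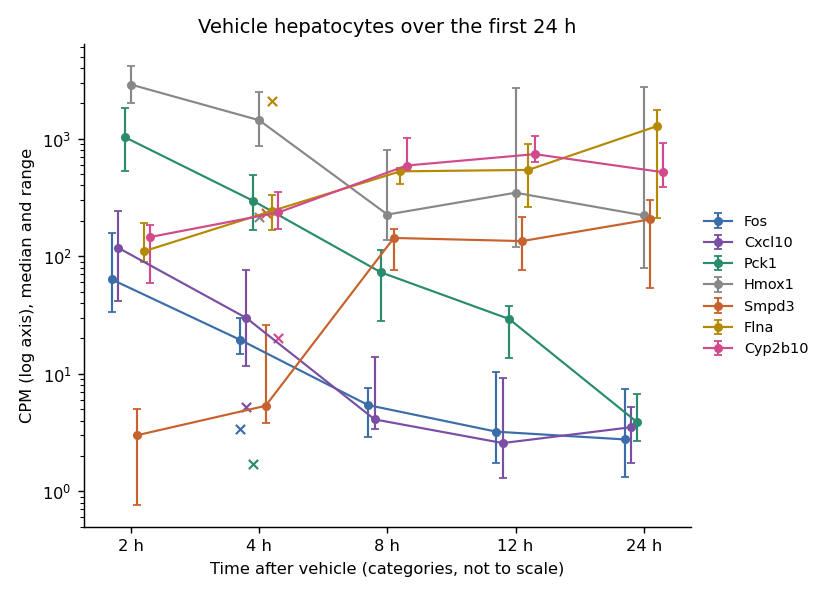
CPM on a log axis of 7 genes in vehicle libraries at 2, 4, 8, 12 and 24 h (equally spaced categories), with points at the median and bars over the range of 8 libraries, or of 7 at 4 h, where crosses show the library left out. Medians of Fos, Cxcl10 and Pck1 were lower at each time up to 8 h, and that of Smpd3 rose mostly between 4 h (5.34 CPM) and 8 h (143.1 CPM).

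Short motifs were counted on both strands in the RefSeq promoter windows (GRCm38.p6, 250 bases before to 50 after the start) of the 2064 genes that rose and the 1772 that fell for which a window was at hand, beside 9865 genes tested and all 27025 windows. The TATA box TATAAA was present in 14.3% of promoters of genes that fell and 6.59% of those that rose, against 9.38% of genes tested and 15.7% of all windows. The AP-1 motif TGANTCA was present in 9.42% and 5.91%, respectively, against 6.57% of genes tested and 8.97% of all windows. The DRE core GCGTG, which can share no more than an end base with the E-box CACGTG, was present in 48.4% of promoters of genes that fell and 57.5% of those that rose (55.1% of genes tested, 35.2% of all windows). The CCAAT box was found in 46.4% and 41.4% (42.5% of genes tested, 41.1% of all windows), and the cyclic AMP response element TGACGTCA in 2.71% and 2.52% (3.51% and 2.03%). The NF-kB motif was found in 2.43% and 1.7% (1.98% and 1.89%), and the E-box in 10.9% and 12.1% (11.9% and 8.09%). The D-box (TTATGTAA or TTACGTAA) was found in 1.58% and 0.63% (0.912% and 1.23%), the sterol element TCACNCCAC in 2.2% and 1.21% (1.55% and 1.44%), and the heat shock element in 0.564% and 0.581% (0.558% and 0.662%). These shares describe letters in a window and were not tested.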

How the data were processed

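RNA from vehicle hepatocytes was sequenced as unstranded paired-end libraries. The authors trimmed reads (Trimmomatic 0.39), aligned them to GRCm39 (Ensembl annotation) with STAR (2.7) and deposited counts of read pairs per gene for each library, after quality control with FastQC 0.11.3, as given in the submitters' processing notes. The unstranded counts were used here, so reads of overlapping antisense genes cannot be told apart. The 4 lines per file that name no gene held 23.9 to 30.2% of read pairs and entered neither library sizes nor tests. Symbols came from GENCODE M21 (GRCm38) for 52083 of 55359 genes, so coordinates are given in GRCm38 and not in the build of the counts.

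Genes were filtered with filterByExpr (count minimum 10, total minimum 15), scaled by TMM and tested with edgeR 4.0.16 (quasi-likelihood, robust) in R 4.3.3, with genotype label as a covariate, on the 16 vehicle libraries. Calls required a Benjamini-Hochberg adjusted p under 0.05 and a change of at least 1.5-fold. SE was the log2 fold change divided by the square root of F. The study's own model, over a whole time course against matched controls, does not compare times within vehicle. The scripts were tested on simulated counts. At 15636067 to 25068992 gene counts per library, differences near 1 CPM rest on few reads. Shares of read pairs were compared by exact permutation tests.

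Named genes were the 10 largest rises and 10 largest falls among called genes with non-overlapping groups and a mean of at least 5 CPM (predicted genes, clones and pseudogenes excluded), the 2 most changed called members of each of 24 lists in each direction, and a short list of reference genes, and other list members are named with their values. Some genes the rule names are not reported here. The comparison, its members and the lists were chosen with earlier results of these data known. Alternatives were DESeq2 1.42.0, RLE scaling in edgeR, library size alone, no filter, other covariates, surrogate variables (sva 3.50.0), GC content, sets of labelled WT libraries by unmapped share, all vehicle libraries in 1 fit, and leaving out each library in turn.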

Additional observations from a re-analysis of the deposited data

Results flagged for a closer look

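Of 208 groups of 8 libraries checked (the named genes and the unmapped and no-gene shares, each at 2 h and 8 h), 25 had a lowest or highest library whose gap to the nearest other exceeded Dixon's critical value at the 95% level. A rate of 1 in 20 by chance holds for independent groups of normally distributed values. These groups were mostly of CPM, pooled both labels and shared the same libraries, so the 25 cannot be set against that rate. The labelled PkmΔDRE 8 h replicate 2 accounted for 12 of the 25 flagged groups, and in all 12 its value lay on the side of the 2 h libraries. It was high for Cxcl10 (13.96 CPM), Cd274 (6.74 CPM), Socs3 (9.17 CPM), Hspa5 (1016 CPM), Fmo1 (45.5 CPM), Serpind1 (237 CPM), Tdo2 (287 CPM), Heatr1 (123.5 CPM), Ifit1 (8.29 CPM) and Egr1 (101.8 CPM), and low for C1qtnf6 (10.1 CPM) and Esrra (19.8 CPM). The same library lay nearest to the 2 h libraries on the first principal component. Of its 12 genes, each kept its call when that library and the labelled PkmΔDRE 2 h replicate 2 were left out.

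The labelled PkmΔDRE 2 h replicate 4 stood apart for 4 genes, away from the 8 h libraries, high for Cxcl10 (242 CPM), Cd274 (68.997 CPM) and Fos (158 CPM) and low for Tef (49.2 CPM). The labelled PkmΔDRE 2 h replicate 1 was high for Pkm (322 CPM) and Ddit4 (47.5 CPM). The labelled PkmΔDRE 2 h replicate 2 was high for Ccn2 (187 CPM) and Ncl (160.3 CPM). The labelled WT 2 h replicate 2 was high for Lif (2.63 CPM) and Afp (4.44 CPM). At 8 h, the labelled PkmΔDRE replicate 4 was low for Fas (2.08 CPM) and Cyp3a11 (350.4 CPM), and the labelled WT replicate 3 was high for mt-Co3 (12.2 CPM).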

How the results depend on the processing

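Most results held over the planned and added settings. Of the values for the named genes checked, 2920 kept their direction and side of the threshold, 66 lost a call, 5 gained one and 9 changed sign. These counts also cover named genes that the text above does not describe, among them E2f2, Klf15 and Ier3, with 14, 13 and 9 lost calls. The sign changes were in genes not called: Per1 (0.011 with the no-gene share as a covariate, 0.37 with library size alone), Actb (0.030 with the no-gene share, 0.019 with the GC trend removed, 0.38 with library size alone), Hnf4a (0.21) with library size alone, and single libraries left out for Per1 (-0.21 to 0.014, positive without the labelled WT 8 h replicate 3 or 4) and Saa1 (-0.00018 without the labelled WT 2 h replicate 4). Scaling by library size alone, chosen after seeing the data, gave 4954 genes higher and 1247 lower in the pooled contrast, 3748 and 1267 in labelled WT, 4519 and 821 in labelled PkmΔDRE, and interaction calls in 0.0076% of genes. The interaction called 1.08% of genes without the filter on low counts, 0.924% with DESeq2, and 0 to 3.95% with 1 library left out (0.015% without the labelled WT 2 h replicate 2, 0.089% without the labelled PkmΔDRE 2 h replicate 2, 3.95% without the labelled PkmΔDRE 8 h replicate 4), and the cause was not tested. With 1 library left out, pooled counts ran from 2243 to 2632 higher and 2266 to 2661 lower, labelled WT from 1833 to 2113 and 1937 to 2239, labelled PkmΔDRE from 1428 to 2024 and 1528 to 2147, and TCDD from 2138 to 2730 and 2559 to 2814. Other settings, chosen after seeing the data, were the labelled PkmΔDRE replicate 2 libraries left out together (2552 higher, 2706 lower), the close labelled WT 8 h pairs summed (2460 higher, 2185 lower), and the set of labelled WT libraries by unmapped share as a covariate, under which no named gene lost or gained a call. Pkm was not called without the labelled PkmΔDRE 2 h replicate 1 (-0.53) or 8 h replicate 3 (-0.75). Nor was it called with all vehicle libraries in 1 fit (-0.93), the no-gene share as a covariate (-0.72) or library size alone (-0.43). Tat was not called without the labelled WT 2 h replicate 2, WT 8 h replicates 3 or 4, or any single labelled PkmΔDRE 8 h library (-0.76 to -0.65). Its call was also lost with no genotype label term (-0.66), all vehicle libraries in 1 fit (-0.84), the no-gene share (-0.59) or unmapped share (-0.58) as a covariate, the GC trend removed (-0.64) or library size alone (-0.34). No paired analysis was possible because the labels give no replicate number, and the numbers here follow accession order and only name libraries. Depth limits genes near 1 CPM, such as Cyp7a1.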
